A study of Homo sapiens with 12 samples.

Results

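The genes described here are 59 genes of the long arm of chromosome 18 (18q), out of 18950 genes in the deposited table. They were chosen by their DU145 values, because neighbouring genes of that arm were higher in the GFP+ than in the GFP- cells of DU145. Those values are given below as a description, without a test. RNA sequencing covered 12 libraries, 3 for each combination of DU145 or PC3, both established human prostate cancer cell lines, with 1 of 2 sorting gates. GFP+ cells were the brightest 10% and GFP- cells the dimmest 10% by the fluorescence of green fluorescent protein, which the labels equate with active and inactive Wnt/β-catenin signaling. All 4 groups (DU145 GFP+, DU145 GFP-, PC3 GFP+ and PC3 GFP-) were grown in DMEM with 10% serum, and the labels name no further treatment. The labels do not tell whether replicate libraries stem from separate cultures, and p-values therefore reflect only how far these libraries spread, which may be technical.

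Libraries held 13453614 to 21528810 estimated counts each. Levels are in CPM, the unit of counts normalised to library size, and are the deposited log2 values taken off the log scale. Where no count was found, the level could be as high as 0.233 CPM in the least deep library (counting error only). Of the 59 members, 57 passed the minimum of 1 CPM in at least 3 of the 12 libraries, as did 12527 genes in all. The other two, SETBP1 and SERPINB5, lay below it in every group. The libraries were also checked against markers of their labelled cells. The keratin genes KRT8 and KRT18 were high in the DU145 libraries (group means 1753 and 2755 CPM for KRT8, GFP+ and GFP-) and lower in the PC3 libraries (18.1 and 26.1 CPM for KRT8). The other 3 of the 5 epithelial markers, EPCAM, KRT19 and CDH1, were under 0.7 CPM in every library. CTNNA1, a gene known to be deleted in PC3, was at 387 ± 17 (SD, n = 3) in PC3 GFP+ and 408 ± 10 CPM in PC3 GFP-. The CTNNA1 values go against the label PC3, or come from parts of the gene that remain, which values per gene cannot separate. The levels of EPCAM and KRT19, genes known from both lines, go against both line labels. Every mention of DU145 or PC3 below therefore means the libraries labelled so, also where a direction between them is given. The immune marker PTPRC was near 0 throughout, as were LUM of fibroblasts and PECAM1 of endothelium. The 4 fibroblast markers of 5 that are in the table summed to 0.422 to 1.24 CPM in DU145 GFP+, 0.710 to 1.39 CPM in DU145 GFP-, 2.95 to 3.73 CPM in PC3 GFP+ and 0.874 to 1.95 CPM in PC3 GFP-, with COL3A1 at 2.65 ± 0.56 and 0.0475 ± 0.0313 CPM. The 3 immune markers of 5 that are in the table summed to 24.8 to 31.1 CPM in DU145 GFP+ and 38.5 to 42.8 CPM in DU145 GFP-, nearly all of it CD68, and to 4.46 to 7.20 CPM in PC3. The part of these shifts in the results below was not tested.

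Chromosome 18q is known as a region often lost in carcinomas, among them those of the prostate. It carries SMAD2 and SMAD4, the signal carriers through which TGF-β receptors reach the genome, and SMAD7, an inhibitor that the same pathway induces. It also carries the apoptosis regulator BCL2, the methyl-CpG binding genes MBD1 and MBD2, and TCF4, an E-box binding factor. TCF4 is a different gene from TCF7L2, the partner of β-catenin whose protein is also called TCF-4. The β-catenin partners of the TCF/LEF family bind a short consensus, which made the members' promoters of interest beside the sort on a Wnt label.

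RefSeq promoter sequences (GRCh38.p14, 300 bases around each start) were matched by symbol for 51 of the 59 members, with 85 starts. On both strands they were searched for the TCF/LEF letters, spelled CTTTGAA or with another ending as CTTTGAT or else as CTTTGTA or finally as CTTTGTT, and for the SMAD element core CAGAC, whose end can share a base with them. The TCF/LEF letters stood in 4 of the 85 windows (4.71%), against 9.18% of the windows of all genes tested and 13.8% of all windows in the reference table. CAGAC stood in 32 of them (37.6%), against 43.4% and 45.3%. The 4 members with the TCF/LEF letters were MAPRE2, SETBP1, SERPINB8 and ZNF407. The following promoters are shown because MALT1 and SMAD4 had some of the highest DU145 values without either motif, while SERPINB8 and MAPRE2 hold both. All are on the plus strand, at chr18:58671215-58671514 (MALT1), chr18:51029963-51030262 (SMAD4), chr18:63969831-63970130 (SERPINB8) and chr18:34976777-34977076 (MAPRE2), and capitals mark the TCF/LEF letters (here on the reverse strand) and CAGAC.
MALT1: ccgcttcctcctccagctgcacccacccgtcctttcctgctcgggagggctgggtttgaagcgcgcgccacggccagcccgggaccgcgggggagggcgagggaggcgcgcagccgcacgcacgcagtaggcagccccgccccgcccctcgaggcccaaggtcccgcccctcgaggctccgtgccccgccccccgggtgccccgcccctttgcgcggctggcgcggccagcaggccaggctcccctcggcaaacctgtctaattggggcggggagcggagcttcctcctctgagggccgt
SMAD4: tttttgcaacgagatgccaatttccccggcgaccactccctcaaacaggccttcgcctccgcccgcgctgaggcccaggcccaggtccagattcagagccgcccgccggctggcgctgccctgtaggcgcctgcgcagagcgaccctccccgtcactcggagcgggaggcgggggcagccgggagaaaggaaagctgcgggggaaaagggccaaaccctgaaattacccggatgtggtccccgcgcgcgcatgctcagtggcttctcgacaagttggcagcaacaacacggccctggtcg
SERPINB8: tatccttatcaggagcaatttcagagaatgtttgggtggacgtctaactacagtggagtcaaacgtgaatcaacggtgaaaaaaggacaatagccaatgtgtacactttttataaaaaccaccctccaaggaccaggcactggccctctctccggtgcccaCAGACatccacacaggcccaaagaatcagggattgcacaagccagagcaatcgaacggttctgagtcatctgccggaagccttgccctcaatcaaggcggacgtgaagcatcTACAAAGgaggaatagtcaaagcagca
MAPRE2: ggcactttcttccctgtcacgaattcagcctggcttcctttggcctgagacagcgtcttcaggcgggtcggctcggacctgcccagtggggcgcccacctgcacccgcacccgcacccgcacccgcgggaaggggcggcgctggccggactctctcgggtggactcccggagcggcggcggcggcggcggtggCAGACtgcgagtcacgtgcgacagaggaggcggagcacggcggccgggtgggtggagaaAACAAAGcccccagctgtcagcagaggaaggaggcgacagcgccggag
The MALT1 window is 76% and the SMAD4 window 66.7% G or C. A match in these windows describes letters only, and factor binding was not measured.

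In DU145, 55 of the 57 members above the minimum had a higher mean in GFP+ than in GFP- cells, with a median log2 fold change of 0.49 (quartiles 0.32 and 0.81). The median over all genes tested was -0.01. At least a doubling was reached by 6 members, 22 lay between 0.5 and 1 on the log2 scale, 27 between 0 and 0.5, and 2 below 0. In 42 of the 57 every GFP+ library was above every GFP- library and in 0 every one was below, whereas 17.9% of all genes were higher and 22.6% lower by the same criterion. Since this contrast chose the members, nothing is read from these counts. The 72 other 18q genes above the minimum had a median of 0.50 (lower quartile 0.14), and 58 of them lay above 0. In 38 of these every GFP+ library was higher and in 6 every one was lower. The 46 genes of the short arm (18p) had a median of 0.03, and 25 of them lay above 0. In sorted bulk cells, fewer cells expressing a gene and less RNA per cell cannot be told apart.

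**Figure D1:**
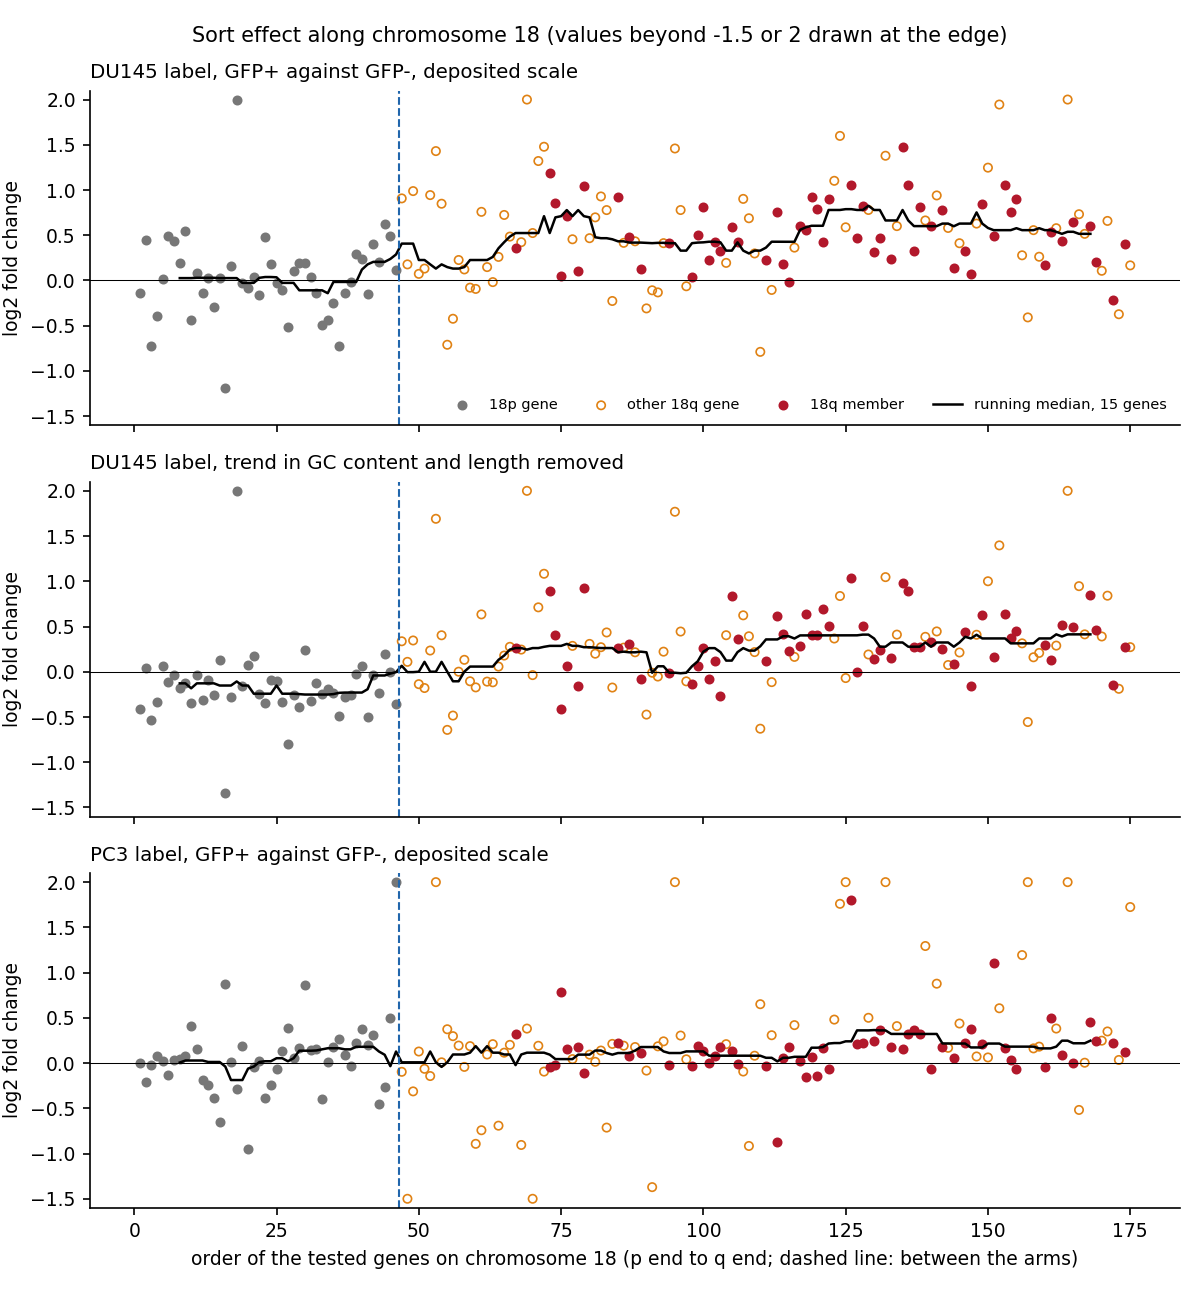
Log2 fold change of GFP+ against GFP- (y axis) for the tested genes of chromosome 18 in their order from the p to the q end (x axis), in DU145 as deposited, in DU145 with the GC content and length trend removed, and in PC3 as deposited. Red points are members, open orange points other 18q genes, grey points 18p genes, and the line is a running median of 15 genes. In DU145 the 18p genes had a median of 0.03 as deposited and -0.21 with the trend removed. The members had 0.49 and 0.28.

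By position in the GENCODE annotation on GRCh38, the members run from TAF4B (from base 26225936) to ADNP2 (to base 80147523). In windows of 10 Mb, the DU145 median was 0.60 for 50 to 60 Mb (27 genes, 19 of them members). It was 0.63 for 60 to 70 Mb (13 genes) and 0.54 for 70 to 80 Mb (19 genes). The windows from 20 to 30, 30 to 40 and 40 to 50 Mb had medians of 0.26, 0.47 and 0.42. The windows of 18p and its border, 0 to 10 and 10 to 20 Mb, stood at 0.02 and 0.08. The values were thus highest over the distal part of the arm. Among 289 windows of the genome with at least 10 genes, the 3 distal windows ranked 7, 3 and 15 in DU145. As a whole, chromosome 18 had the highest median of 23 chromosomes in DU145 (0.41), followed by chromosome 13 (0.30) and chromosome 4 (0.27). The members, 19, 7 and 9 of the genes in the 3 distal windows, were chosen on this contrast. Nothing is therefore read from these ranks.

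GC content moved with these values. In DU145, genes poor in G and C had higher values in GFP+ cells all over the genome (Spearman rho -0.64 over 12335 genes outside chromosome 18, and -0.44 over the 57 members, both descriptions across genes of the same libraries). The members' transcripts had a median GC content of 44.2% against 49.8% over all genes. Values within bands of GC content are given as a description, since the members were chosen on this contrast. Between 38 and 42% GC, 19 members had a median of 0.78, 16 other 18q genes 0.75, genes outside the chromosome 0.46 and 12 genes of 18p 0.20. Between 46 and 50% GC, the medians were 0.41 for 11 members, 0.23 for 14 other 18q genes, 0.02 outside and -0.14 for 18p. Between 50 and 60% GC, they were 0.38 for 6 members, -0.09 for 10 other 18q genes and -0.19 outside.

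**Figure D2:**
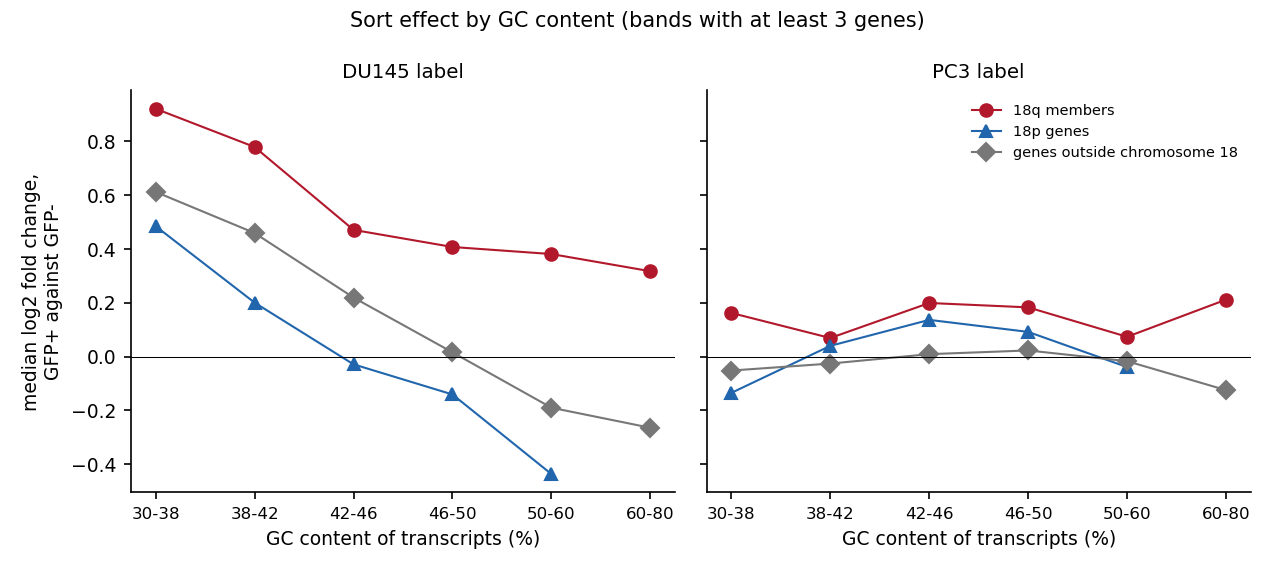
Median log2 fold change of GFP+ against GFP- (y axis) in bands of transcript GC content in percent (x axis), in DU145 and PC3, for bands with at least 3 genes. In DU145 all curves fall with GC content, and the members (red) lie above the genes outside chromosome 18 (grey), which lie above 18p (blue).

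With the loess trend on GC content and length of transcripts taken out of each library, the members' DU145 median was 0.28, that of the other 18q genes 0.26 and that of 18p -0.21. Of the members, 47 of 57 were then above 0, and in 36 the libraries of the sorts did not overlap and GFP+ was higher (16.3% of all genes). RNF125 was the 1 member whose GFP+ libraries were all lower on this scale (20.8% of all genes). The 3 distal windows had medians of 0.39, 0.41 and 0.39 and ranked 3, 1 and 2 of 289. Chromosome 18 ranked 1 of 23 with a median of 0.17. Members chosen on this contrast are among these genes, and nothing is read from the ranks. The windows of 0 to 10 and 10 to 20 Mb were at -0.17 and -0.23. The part of the trend in the deposited differences was not tested beyond this removal.

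**Figure D3:**
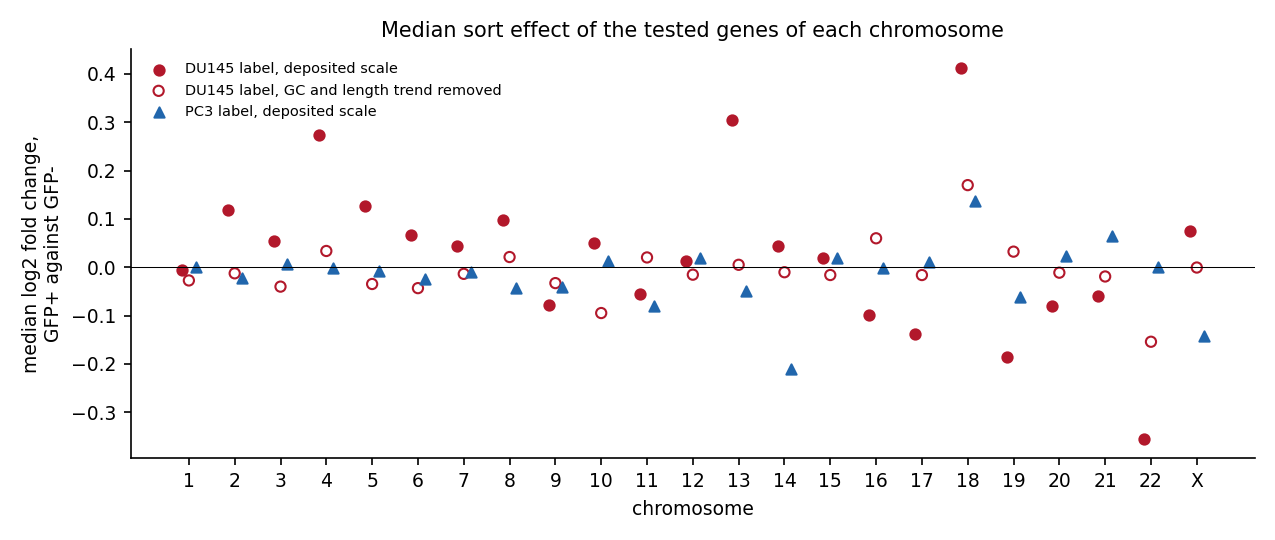
Median log2 fold change of GFP+ against GFP- (y axis) of the tested genes of each chromosome (x axis), in DU145 as deposited (filled red), in DU145 with the GC content and length trend removed (open red) and in PC3 as deposited (blue triangles). Chromosome 18 is highest in each series, at 0.41, 0.17 and 0.14.

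The libraries of DU145 GFP+ were not alike. Set against the DU145 GFP- mean, the members' median was 0.64 in replicate 1, 0.58 in replicate 2 and 0.35 in replicate 3. With the trend removed it was 0.28, 0.33 and 0.26. The low value of replicate 3 was thus found on the deposited scale, and the 3 libraries lay closer together on the other. For 18p the trend-removed medians of the same libraries were -0.18, -0.16 and -0.17.

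**Figure D4:**
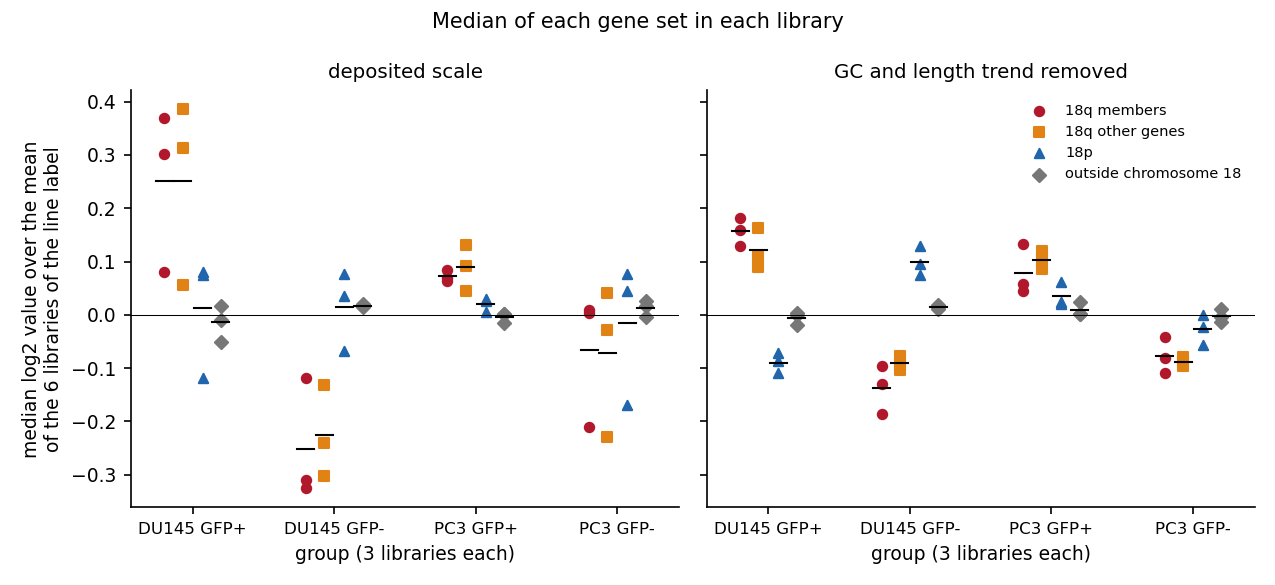
Median over each gene set of the log2 value in a library minus the mean of the 6 libraries of its line label (y axis), by group (x axis, 3 libraries each, bars are group means), as deposited and with the GC content and length trend removed. The members' GFP+ libraries in DU145 range from 0.08 to 0.37 as deposited and from 0.13 to 0.18 with the trend removed.

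Among the SMAD genes, SMAD4, the shared partner of the receptor-activated SMADs (ENSG00000141646, bases 51028394 to 51085045), had the largest DU145 difference. It was at 76.1, 86.0 and 61.4 CPM in DU145 GFP+ and 35.3, 45.98 and 36.2 CPM in DU145 GFP-, a 1.90-fold difference (log2 fold change 0.92 ± 0.12 SE, 0.40 with the trend removed). Every GFP+ library lay above every GFP- library. In PC3 it was at 47.0, 49.1 and 46.2 CPM in GFP+ and 47.1, 43.4 and 45.1 CPM in GFP-, and these groups overlapped (0.07 ± 0.12, limma adjusted p = 0.813). SMAD7, the inhibitor, was at 23.9, 23.6 and 23.2 CPM in DU145 GFP+ and 14.3, 16.4 and 16.03 CPM in DU145 GFP-, without overlap. Its log2 fold change was 0.60 ± 0.10 as deposited and 0.83 with the trend removed, and its transcripts are 58.7% G or C. In PC3 its libraries ran from 26.6 to 28.6 and from 24.6 to 25.9 CPM (0.13 ± 0.10, limma adjusted p = 0.484). SMAD2, the TGF-β receptors' direct substrate, was at 104, 98.1 and 85.2 CPM against 74.8, 84.6 and 69.3 CPM in DU145 (0.33 ± 0.10). With the trend removed it stood at -0.27 and the groups overlapped, so the direction of SMAD2 depends on the scale.

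The ubiquitin ligase genes among the members differed from each other. NEDD4L, whose product can ubiquitinate activated SMAD2, was high in DU145 (269, 277 and 230 CPM in GFP+, 210, 226 and 222 CPM in GFP-) and low in PC3 (27.5 to 35.7 and 26.8 to 29.8 CPM). RNF138 and the SUMO ligase gene PIAS2 had DU145 log2 fold changes of 0.71 and 0.81, and of 0.06 and 0.26 with the trend removed, where the groups of RNF138 overlapped. RNF125, an E3 ligase known to act on the RNA sensor RIG-I, did not share them. It was at 13.6, 13.9 and 10.5 CPM in DU145 GFP+ and 10.3, 11.7 and 14.8 CPM in DU145 GFP-, which overlap.

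MALT1, a paracaspase that relays signals to NF-κB (ENSG00000172175, bases 58671386 to 58754477), had the largest DU145 difference of the members. Its level was 48.6, 42.1 and 26.6 CPM in DU145 GFP+ and 16.03, 14.9 and 10.7 CPM in DU145 GFP-, a 2.77-fold difference (log2 fold change 1.47 ± 0.24, 0.98 with the trend removed). In PC3 the libraries overlapped, at 33.7, 30.2 and 42.8 CPM in GFP+ and 36.5, 23.9 and 35.9 CPM in GFP- (0.16 ± 0.24, limma adjusted p = 0.770). The MALT1 counts were fractional in 9 of the 12 libraries, which can arise where reads are shared between features, and 14 members had such counts in at least 1 library (SMAD4 and SERPINB8 in 7, RNF125 in 6). PHLPP1, a phosphatase that acts on AKT, had a smaller difference, 18.4 ± 2.3 against 14.6 ± 0.5 CPM (0.32 ± 0.13). SOCS6, of the suppressors of cytokine signaling, was at 11.7 ± 2.3 against 6.17 ± 0.58 CPM (0.90 ± 0.20). TNFRSF11A, the receptor RANK, was near 2 CPM in DU145 and overlapped between the sorts (0.14 ± 0.51).

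Of the apoptosis genes, BCL2, which blocks mitochondrial apoptosis, was at 6.26, 6.72 and 5.32 CPM in DU145 GFP+ and 6.03, 6.29 and 5.04 CPM in DU145 GFP- (0.08 ± 0.19). PMAIP1, which encodes the pro-apoptotic protein NOXA, was at 12.7, 8.23 and 6.48 against 4.27, 8.81 and 5.17 CPM (0.60 ± 0.27). Both overlapped between the DU145 sorts. Of the CpG-binding genes, MBD2 was at 83.3, 89.8 and 85.0 against 59.98, 70.1 and 62.1 CPM in DU145 and MBD1 at 126, 139 and 137 against 121, 116 and 116 CPM. Their log2 fold changes were 0.43 ± 0.09 and 0.19 ± 0.07, and 0.69 and 0.42 with the trend removed. CXXC1, which targets a histone methyltransferase complex to unmethylated CpG islands, was at 123, 119 and 145 against 135, 123 and 133 CPM. Its log2 fold change was -0.02 ± 0.09 as deposited and 0.23 with the trend removed, where every GFP+ library was higher.

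Among the 8 DNA-binding transcription factors of the list, the DU145 log2 fold changes ran from 0.41 (ADNP2) to 1.06 (TCF4). ZNF532, a zinc finger gene, was at 48.1, 41.2 and 37.5 CPM in DU145 GFP+ and 19.3, 23.4 and 18.4 CPM in DU145 GFP- (1.05 ± 0.13, 0.90 with the trend removed). The value of TCF4 rests on 12 counts over the DU145 GFP+ libraries and 7 over the GFP- libraries, whose levels overlapped. ZNF397 was at 16.1 ± 2.3 against 7.78 ± 0.63 CPM (1.04 ± 0.19). The 9 membrane traffic genes ran from 0.33 to 0.86. They include LMAN1, a cargo receptor between endoplasmic reticulum and Golgi (106 ± 24 against 59.6 ± 1.6 CPM), and VPS4B, an ATPase of the ESCRT machinery (31.3 ± 3.2 against 17.5 ± 2.9 CPM). The log2 fold change of LMAN1 was 0.81 as deposited and 0.27 with the trend removed, and that of VPS4B was 0.85 and 0.63. PIK3C3, the lipid kinase VPS34, went from 0.42 to -0.02.

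The 3 glycosylation genes, the galactosyltransferase gene B4GALT6, GALNT1, which starts mucin-type O-glycans, and PIGN of GPI anchor synthesis, had log2 fold changes of 1.19, 0.92 and 0.78 as deposited and 0.89, 0.26 and 0.26 with the trend removed. B4GALT6 was at 11.2, 8.23 and 5.70 CPM in DU145 GFP+ and 4.21, 3.97 and 2.67 CPM in DU145 GFP-. TMX3, a thioredoxin-related protein of the endoplasmic reticulum, was at 33.6, 27.4 and 16.3 against 11.7, 13.0 and 10.96 CPM (1.06 ± 0.24, 0.64 with the trend removed). Neither gene overlapped between the DU145 sorts. The 5 metabolic genes had lower values, from 0.17 (CNDP2) to 0.60 (ME2). At the bottom of the list, HAUS1 of the mitotic spindle was at 21.8, 15.6 and 15.6 against 13.5, 19.9 and 18.3 CPM (0.04 ± 0.17). TXNL4A, a component of the spliceosome near the end of the arm, was at 57.6, 63.0 and 76.6 against 75.6, 74.9 and 76.5 CPM (-0.21 ± 0.10).

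**Figure D5:**
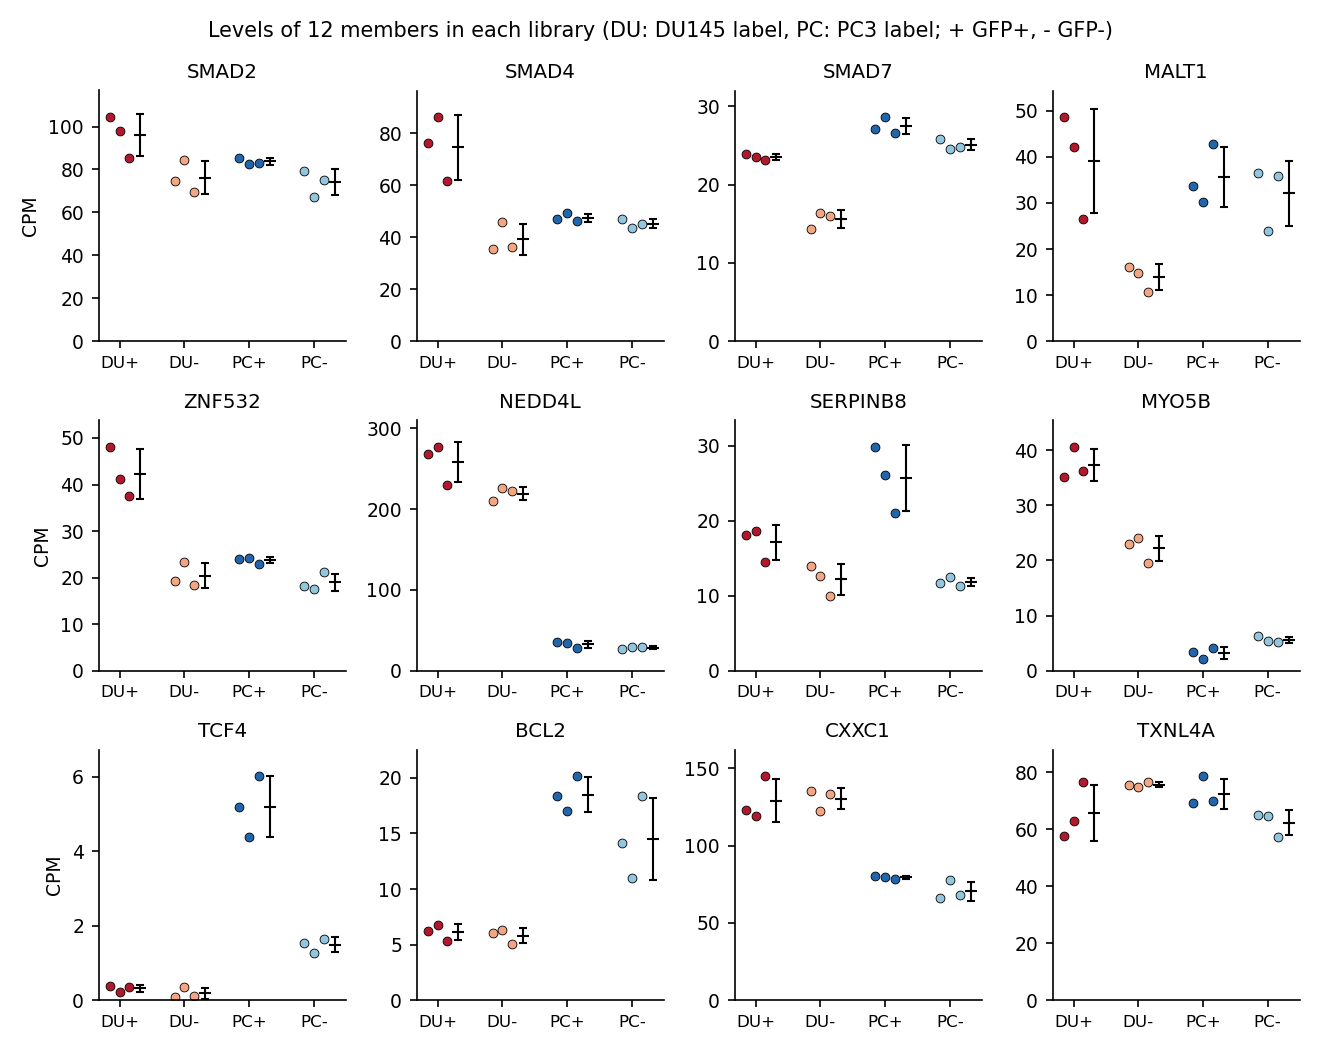
Levels of 12 members in CPM (y axis, from 0) in each library of the 4 groups (x axis: DU for DU145, PC for PC3, + and - for the GFP sorts), with the group mean and SD as bars. MALT1, SMAD4 and ZNF532 separate the DU145 sorts, SERPINB8 and TCF4 separate the PC3 sorts, and NEDD4L, MYO5B and BCL2 separate the line labels.

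Whether the members also differed between the sorts of PC3, whose libraries took no part in choosing them, was tested. The median of their log2 fold changes was 0.15 in PC3, 41 of 57 lay above 0, and the median over all genes was -0.02. By limma, 3 members were higher and 1 was lower in PC3 GFP+ (4.17% and 5.27% of all genes), and 53 did not pass. In 20 members every GFP+ library was higher and in 1 every one was lower (14% and 16.4% of all genes). The other 18q genes had a median of 0.18 and 18p had 0.04. The windows of 50 to 60, 60 to 70 and 70 to 80 Mb, at 0.24, 0.22 and 0.22, ranked 2, 4 and 3 of 289, and chromosome 18 ranked 1 of 23 in PC3 too, with a median of 0.14. A high PC3 value was not limited to 18q. The window of 10 to 20 Mb, which holds no member, stood at 0.17 (rank 8, and rank 5 without PC3 GFP- replicate 2). That was above the windows of 20 to 30, 30 to 40 and 40 to 50 Mb (0.09, 0.10 and 0.08), while 0 to 10 Mb stood at 0.01. The deposited median of the members rested on PC3 GFP- replicate 2, without which it was 0.04. The median of chromosome 18 without that library was 0.06 (rank 1 of 23). The other chromosomes then ran from -0.23 (chromosome 14) to 0.04 (chromosome 17), and the median over all genes is not given for that setting. The 3 distal windows stood at 0.23, 0.14 and 0.24 (ranks 3, 6 and 2). With the GC content and length trend removed, the members' median was 0.16. The 3 PC3 GFP+ libraries then lay at 0.12, 0.23 and 0.15 above the GFP- mean, and 13 members were higher and 1 was lower by limma (10.2% and 9.09% of all genes). On that scale the PC3 GFP- libraries lay at -0.04, -0.11 and -0.08 relative to the PC3 mean, against 0.01, -0.21 and 0.00 as deposited.

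SERPINB8, an inhibitor of proteases of the ovalbumin-type serpin family (ENSG00000166401, bases 63969925 to 64019779), rose most clearly in PC3. It was at 29.8, 26.1 and 21.0 CPM in PC3 GFP+ and 11.7, 12.4 and 11.3 CPM in PC3 GFP-, a 2.15-fold difference (log2 fold change 1.10 ± 0.17, limma adjusted p = 0.000799). The call held without any 1 of the 12 libraries, with an adjusted p of at most 0.00684. In DU145 it was at 18.1, 18.7 and 14.5 against 14.0, 12.6 and 9.97 CPM (0.49 ± 0.17, 0.17 with the trend removed). Its promoter, printed above, is one of the 4 with the TCF/LEF letters, and MAPRE2, another of them, was at 37.98, 36.01 and 42.9 against 35.1, 32.5 and 35.2 CPM in PC3 (0.18 ± 0.09, limma adjusted p = 0.236).

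TCF4 rose in PC3 from 1.54, 1.25 and 1.64 CPM in GFP- to 5.18, 4.38 and 6.004 CPM in GFP+ (3.50-fold, 1.81 ± 0.49 on the log2 scale, limma adjusted p = 0.0352). The groups did not overlap, but the call was lost under 8 of 22 alternatives. These were leaving out any 1 of the 6 PC3 libraries (adjusted p of up to 0.117), no minimum (0.0693) and quantile normalization (0.0695). The TCF4 call held with each line fitted alone (limma adjusted p = 0.00373) and by limma-voom (adjusted p = 0.000696). RNF125 rose in PC3 from 4.99, 3.49 and 5.11 CPM to 8.09, 6.36 and 8.86 CPM (0.79 ± 0.21, limma adjusted p = 0.0322). That call was lost without PC3 GFP+ replicate 1 or 3 or PC3 GFP- replicate 1 or 2 (adjusted p of up to 0.119) and with each line fitted alone (0.0757). MYO5B, a myosin motor of recycling endosomes, fell in PC3 from 6.26, 5.38 and 5.29 CPM to 3.34, 2.12 and 4.14 CPM (-0.87 ± 0.21, limma adjusted p = 0.0180). That call was lost without PC3 GFP+ replicate 2 or PC3 GFP- replicate 1 (adjusted p of up to 0.0718) and with each line fitted alone (0.0971). In DU145 the order of the MYO5B groups was the opposite, at 35.2, 40.6 and 36.1 CPM in GFP+ and 22.9, 24.02 and 19.6 CPM in GFP-.

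Members that passed in PC3 with the trend removed but not as deposited were CXXC1, TXNL4A, NARS, SEC11C, LMAN1, GALNT1, FECH, ZNF407, NFATC1 and CTDP1, all higher in GFP+ (they were named after their values were seen). Of these, FECH, NARS, SEC11C and ZNF407 also passed under at least 1 other alternative without that removal, such as equal medians (FECH and NARS), quantile normalization (FECH and SEC11C) or the replicate block (NARS and ZNF407). NARS, an asparaginyl-tRNA synthetase gene, had a log2 fold change of 0.35 with the trend removed (limma adjusted p = 0.0004) and 0.36 as deposited (limma adjusted p = 0.0782). TXNL4A, the lowest member in DU145, had 0.32 (limma adjusted p = 0.0032) and 0.22 (limma adjusted p = 0.223). SERPINB5, the maspin gene, had 0 counts over DU145 GFP+, DU145 GFP- and PC3 GFP+ and 5 counts over PC3 GFP-. SETBP1, which binds the oncoprotein SET, had 5, 2, 29 and 9 counts over the libraries of DU145 GFP+, DU145 GFP-, PC3 GFP+ and PC3 GFP-.

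The level of each member was also compared between DU145 and PC3 over both sorts, a contrast that the choice did not use. By limma, 23 members were higher and 22 lower in DU145 and 12 did not pass, while 38.3% and 39.2% of all genes were called higher and lower. The members' median difference was 0.07 on the log2 scale, against -0.01 over all genes. When every library was shifted to the same median, which moved the median of all genes from -0.01 to 0.13, 29 members were higher and 16 lower (44.9% and 32.1% of all genes). NEDD4L (log2 difference 2.97 ± 0.07, limma adjusted p = 6.7e-13) and MYO5B (2.78 ± 0.15, limma adjusted p = 1.11e-09) were highest in DU145 relative to PC3. They were followed by NFATC1, a calcium-regulated transcription factor (1.83 ± 0.13), and TNFRSF11A (1.76 ± 0.36). In all 4 genes every DU145 library lay above every PC3 library.

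TCF4 was the lowest in DU145, at 0.0909 to 0.389 CPM against 1.25 to 6.004 CPM in PC3 (-3.70 ± 0.35, limma adjusted p = 3.77e-07). TMX3 (-1.54 ± 0.17), PMAIP1 (-1.53 ± 0.19) and BCL2 (-1.45 ± 0.13, limma adjusted p = 2.98e-07) were also lower, without overlap between the line labels. BCL2 was at 18.4, 17.0 and 20.1 CPM in PC3 GFP+ and 14.2, 11.02 and 18.4 CPM in PC3 GFP-. All 3 CpG-binding members were higher in DU145, CXXC1 by 0.79 ± 0.06, MBD1 by 0.71 ± 0.05 and MBD2 by 0.45 ± 0.06. Of the SMAD genes, SMAD7 was lower in DU145 (-0.45 ± 0.07, limma adjusted p = 3.56e-05), SMAD4 was higher (0.21 ± 0.09, limma adjusted p = 0.0426) and SMAD2 did not pass (0.12 ± 0.07, limma adjusted p = 0.137). The SMAD4 call was lost without any 1 of 9 of the libraries (adjusted p of up to 0.118), with the trend removed (0.0616), with no minimum (0.0523) and with eBayes fitted without its own trend (0.0647), and SMAD2 passed when libraries were shifted to equal medians (0.26, limma adjusted p = 0.00161).

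Genes that work with the members but lie on other chromosomes were counted from lists of the TGF-β and BMP pathway, the BCL2 family and the CpG-binding genes. For these genes the DU145 contrast was tested, where 13.1% of all genes were higher and 13.9% lower (8.84% and 11.7% with the trend removed). Of the TGF-β and BMP ligand genes, 9 passed the minimum, of which 0 rose and 1 fell in DU145 (list median 0.15) and 0 passed in PC3 by the same limma test. At an unadjusted p under 0.05 in the limma fit, 1 was higher and 3 were lower in DU145, and 2 were higher and 1 lower in PC3. With the trend removed, limma called 2 ligand genes higher and 1 lower in PC3 (10.2% and 9.09% of all genes). Limma-voom called 0 higher and 2 lower in DU145, and 2 higher and 0 lower in PC3. In PC3 limma-voom called 564 of all 12527 genes higher and 695 lower. The share of all genes at the unadjusted p is not given here. The ligand gene that fell was BMP6, from 12.4 ± 2.7 to 5.93 ± 0.21 CPM, a log2 change of -1.04 ± 0.18 (limma adjusted p = 0.00325). In PC3 it was at 8.22 ± 0.81 in GFP- and 5.48 ± 0.88 CPM in GFP+ (limma adjusted p = 0.0618). Of 11 receptor genes, 3 rose in DU145, TGFBR1 (0.63), BMPR2 (0.60) and BMPR1A (0.54), and 0 fell (0 at an unadjusted p under 0.05 and 0 by limma-voom). With the trend removed they stood at 0.04, -0.12 and -0.04 and did not pass, and the list median went from 0.22 to -0.12. In PC3 the type II receptor gene TGFBR2 was the 1 that fell, from 67.1 ± 9.1 to 47.8 ± 3.4 CPM (-0.48 ± 0.10, limma adjusted p = 0.00973).

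Of 19 other SMADs and SMAD regulators, 8 rose and 1 fell in DU145, with a list median of 0.36. With the trend removed the median was 0.03, and 3 rose and 1 fell. In PC3 1 rose as deposited. With the trend removed, 6 rose and 2 fell in PC3 (10.2% and 9.09% of all genes). By limma-voom 5 were higher in DU145. SMAD1, which carries BMP signals, rose in DU145 from 13.2 ± 0.3 to 19.4 ± 1.7 CPM and kept its call with the trend removed (limma adjusted p = 0.0105 and 0.0054). SMAD5 rose by 0.58 as deposited and stood at -0.12 with the trend removed, where it did not pass. FKBP1A, a binding protein of the type I receptors, fell in DU145 from 1231 ± 75 to 923 ± 89 CPM (limma adjusted p = 0.00372). SKI, a corepressor of SMAD complexes, rose in PC3 from 117 ± 2 to 150 ± 5 CPM (limma adjusted p = 0.00256). Of 14 known SMAD target genes, 0 rose and 5 fell in DU145 (list median -0.17, 0.06 with the trend removed, when 1 rose and 1 fell), and 2 rose and 1 fell in PC3. At an unadjusted p under 0.05 in the limma fit 1 target gene was higher and 6 were lower in DU145, and limma-voom called 0 higher and 5 lower. In DU145 LTBP2 fell from 126 ± 1 to 72.2 ± 0.9 CPM (limma adjusted p = 9.49e-06), as did PDGFB (-0.42) and ID3 (-0.41), and the last 2 lost their calls with the trend removed. The PC3 changes were in COL4A1 (4.96 ± 0.57 to 32.3 ± 0.3 CPM), COL4A2 (10.1 ± 1.5 to 65.4 ± 1.6 CPM) and ID1, which fell from 144 ± 10 to 97.0 ± 9.9 CPM.

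Of 14 BCL2 family genes outside the chromosome, 0 rose and 6 fell in DU145 (list median -0.28, -0.19 with the trend removed, with 6 falling on that scale too), and 1 fell in PC3. None was higher in DU145 at an unadjusted p under 0.05 (0) or by limma-voom (0). BOK, a pro-apoptotic member, fell in DU145 from 127 ± 10 to 83.7 ± 8.1 CPM (limma adjusted p = 0.00438). BMF and BCL2L13 fell there too (-1.81 and -0.40), and in PC3 the anti-apoptotic BCL2L1 fell from 395 ± 37 to 303 ± 13 CPM (limma adjusted p = 0.0174). Of 20 CpG-binding and methylation genes, 3 rose and 2 fell in DU145 (list median 0.03), and 1 fell in PC3. With the trend removed, the list median in DU145 was 0.18, and 5 rose and 2 fell (8.84% and 11.7% of all genes). In PC3 1 rose and 2 fell on that scale (10.2% and 9.09% of all genes). UHRF2 rose in DU145 from 11.1 ± 0.7 to 19.0 ± 1.2 CPM (limma adjusted p = 0.00218). MBD5 rose by 0.61 and lost its call with the trend removed, and DNMT3B fell from 48.8 ± 2.1 to 34.5 ± 5.4 CPM. In PC3 CXXC5 fell from 4.93 ± 0.26 to 2.02 ± 0.40 CPM (limma adjusted p = 0.00221).

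Some of these calls outside chromosome 18 were lost when 1 library was left out, for most of them whichever of several libraries it was. In DU145 the calls of BMPR1A, BMPR2, PDGFB and ID3 were each lost without DU145 GFP+ replicate 1 or 2 or without DU145 GFP- replicate 1 or 3 (limma adjusted p of up to 0.102, 0.119, 0.0943 and 0.162), and that of ID3 also without PC3 GFP- replicate 1 (0.0538). TGFBR1 lost its call without DU145 GFP+ replicate 1 or 2 or DU145 GFP- replicate 3 (up to 0.115), and SMAD5 without DU145 GFP+ replicate 1 or 2 or DU145 GFP- replicate 1 (up to 0.0700). SMAD1 (0.0513) and MBD5 (0.0509) lost theirs without DU145 GFP+ replicate 1, and DNMT3B (0.0521) without DU145 GFP- replicate 3. COL4A2, also among the SMAD targets that fell in DU145 (-0.29, limma adjusted p = 0.0460), lost its call without any 1 of 9 libraries (up to 0.180), with the trend removed (0.0699), with no minimum (0.0630) and with eBayes fitted without its own trend (0.0801). Quantile normalization ended the DU145 calls of TGFBR1, SMAD1, PDGFB, ID3 and COL4A2. In PC3 the call of TGFBR2 was lost without PC3 GFP+ replicate 1 (limma adjusted p = 0.0534). That of BCL2L1 was lost without any 1 of 4 PC3 libraries (PC3 GFP+ replicates 1 and 3, PC3 GFP- replicates 1 and 2; adjusted p of up to 0.0710) and with equal medians (0.106). The sort effect itself was tested for a difference between the line labels, and by the limma interaction test it was higher in DU145 for 7.06% and lower for 8.82% of all genes. Among the list genes named here, UHRF2, MBD5, CXXC5, SMAD5 and ID1 passed as higher and COL4A1, COL4A2, BMF, LTBP2, BOK, DNMT3B, FKBP1A and SKI as lower in DU145 than in PC3. These genes had been named for a small p in a sort contrast, which favours passing this test.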

How the data were processed

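RNA of 12 libraries (4 groups of 3, assigned by the labels) was extracted with a column kit, per the labels' protocols. STAR and DESeq2 appear, with no version, in the submitters' processing notes. The genome build and the way of counting are not given in the sources used. The deposited values are log2 values, which per the labels are normalized counts. Their spacing is that of log2 CPM with 0.5 counts added by the authors, and undoing it gave counts of which 86.4 to 88.0% per library were whole within 0.01. The design anticipated this scale.

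Genes had to reach a log2 value of 0 (1 CPM) in at least 3 of the 12 libraries. limma 3.58.1 in R 4.3.3 was fitted to 4 group means (8 residual degrees of freedom, eBayes with trend, two-sided tests), with Benjamini-Hochberg adjustment over all 12527 genes at 0.05, and was tested on simulated data. Fold changes are log2 differences ± SE and levels are means ± SD of 3 libraries. Values of the members below the minimum are counts. Positions, GC content and length (medians over a gene's coding transcripts) were taken from GENCODE 29 (GRCh38), which held 18901 of the genes by identifier. For the trend removal, a loess on GC content and log2 length (span 0.4) was subtracted per library relative to its line mean. Fold changes on the log2 scale with the 0.5 offset understate those of low genes.

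The members and lists were chosen with earlier results of these data known. Named are 12 members fixed by name, the 5 largest and 5 smallest in DU145, up to 6 passing in PC3 and the 4 highest and 4 lowest between the lines, plus up to 3 genes per list, sort contrast and smallest p. Other members are examples of their role. Alternatives were each line fitted alone, quantile normalization, equal medians, voom, no minimum or a minimum of 4, eBayes with no trend, the replicate block, the trend removal, and leaving out libraries. A further gene of the check on the line labels is not reported here.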

Additional observations from a re-analysis of the deposited data

Results flagged for a closer look

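The difference of the sort effect between the line labels (DU145 minus PC3 log2 fold change) passed the limma interaction test at an adjusted p under 0.05 for 13 of the named genes outside chromosome 18. By the same test 7.06% of all genes were higher and 8.82% lower in DU145. The named genes had been picked for a small p in the DU145 or the PC3 sort contrast, which favours passing here. The difference was negative, the DU145 value being the lower, for COL4A2 (-2.99), COL4A1 (-2.93), BMF (-2.76), LTBP2 (-0.94), BOK (-0.58), DNMT3B (-0.57), FKBP1A (-0.56) and SKI (-0.52). It was positive for CXXC5 (1.34), UHRF2 (1.05), MBD5 (0.96), SMAD5 (0.81) and ID1 (0.46). The adjusted p ran from 7.72e-08 for COL4A1 and COL4A2 to 0.0456 for ID1. With the trend in GC content and length removed, SMAD5 stood at 0.08 (limma adjusted p = 0.76) and DNMT3B at -0.41 (limma adjusted p = 0.071), and the other 11 passed. The members' own differences between the line labels contain the contrast that chose them and were not tested.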

How the results depend on the processing

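The members' median log2 fold change in DU145, 0.49, was above 0 under all 23 alternatives. Since this contrast chose the members, nothing is read from that sign. The DU145 median was 0.28 with the GC content and length trend removed, with or without the replicate block, 0.35 without DU145 GFP+ replicates 1 and 2, and 0.45 to 0.60 without single libraries. The median in PC3, 0.15, was 0.040 to 0.19 without single libraries, the lowest without PC3 GFP- replicate 2. The 4 members passing in PC3 became 2 with each line fitted alone, 14 with the trend removed and 16 with the trend removed and the replicate block, and 2 to 7 without single libraries (7 without DU145 GFP+ replicate 3). The 1182 genes passing in PC3 became 2412 with the trend removed, 2768 with the block added and 660 to 1492 without single libraries (660 without PC3 GFP+ replicate 1, 709 without PC3 GFP+ replicate 2). With equal medians they were 509 higher and 412 lower in place of 522 and 660. Members passing between the lines numbered 38 to 51 under all alternatives. The 38 were of 49 members with a minimum of 4, where 6849 of 8655 genes passed. The 51 were of 57 members with the trend removed and the replicate block, where 10377 of 12510 genes passed. BMPR1A (-0.039), BMPR2 (-0.12) and SMAD5 (-0.12) changed sign in DU145 with the trend removed, with and without the block. Sign changes of values that passed in neither fit are not counted.

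Whether replicate numbers pair the libraries was not settled, and the main fit did not pair them. The correlations between same-numbered libraries, of deviations from the group mean, were -0.02, 0.09 and 0.21 in DU145 and 0.06, 0.20 and 0.15 in PC3, not all above 0.1. Those between differently numbered libraries ran from -0.23 to 0.18 in DU145 and from -0.17 to 0.04 in PC3. With 3 libraries in each group, these correlations cannot decide on pairing. With the replicate block 6 members and 1551 genes passed in PC3, in place of 4 and 1182. Of 90 gene results, voom, equal medians and quantile normalization left 83 to 88 as they were, the trend removal 75 (6 lost their call, 6 gained one and 3 changed sign), the trend removal with the block 74, and leaving out DU145 GFP+ replicates 1 and 2 left 71. Counts of a few reads, as for TCF4 in DU145, limit the precision.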
